A study of Mus musculus with 4 samples.

Results

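The 9 genes described here encode enzymes and cofactors that make piRNAs, and were chosen by name: Ddx4, Mael, Mov10l1, Pld6, Asz1, Gtsf1, Henmt1, Pnldc1 and Btbd18. All 9 were found among the 15733 protein-coding genes of the deposited count table. The libraries are mRNA from mouse pachytene spermatocytes, the meiotic germ cells whose homologous chromosomes are paired. Single-cell suspensions of testis were kept ex vivo for 12 h with 2.5 µM BMH21, a DNA-intercalating inhibitor of RNA polymerase I, or with its solvent DMSO (mock). Hoechst fluorescence then served to sort the pachytene cells. Each condition had 2 libraries, called biological replicates in the series' design. The animals' strain, age and genotype do not appear in the sources used here.

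piRNAs are small RNAs that guide PIWI proteins to transposon and other transcripts in the germ line. In pachytene cells long single-stranded precursors are transcribed, carried to granules beside the mitochondria, cut to give the head end of an intermediate, loaded into a PIWI protein, trimmed at the tail end and methylated there. Male mice that lack these factors are known to be sterile, with arrest in meiosis or in spermatid development. The libraries measured the mRNAs of the factors; piRNAs themselves were not measured.

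Promoters are shown for Btbd18, which had the largest change of the 9, and for Mael, the most abundant per length. Those of Ddx4, Pld6 and Mov10l1, with fitted changes of 4.68%, 9.36% and -8.62%, are shown too. Each is the 250 bases before the start given by RefSeq on GRCm38.p6, written 5′ to 3′ on the gene's own strand. Capitals mark matches to 2 motifs, the E-box CACGTG and the MYB core AACGG, the latter also in its reverse complement CCGTT. Pld6 has a second RefSeq start inside the gene, and its outer window is shown.
Btbd18, chr2:84658829-84659078, plus strand: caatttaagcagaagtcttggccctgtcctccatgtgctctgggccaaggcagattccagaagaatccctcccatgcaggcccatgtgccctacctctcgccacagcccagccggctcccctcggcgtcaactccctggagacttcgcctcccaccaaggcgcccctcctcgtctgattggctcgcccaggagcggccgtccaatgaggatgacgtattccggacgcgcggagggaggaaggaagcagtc
Ddx4, chr13:112652311-112652560, minus strand: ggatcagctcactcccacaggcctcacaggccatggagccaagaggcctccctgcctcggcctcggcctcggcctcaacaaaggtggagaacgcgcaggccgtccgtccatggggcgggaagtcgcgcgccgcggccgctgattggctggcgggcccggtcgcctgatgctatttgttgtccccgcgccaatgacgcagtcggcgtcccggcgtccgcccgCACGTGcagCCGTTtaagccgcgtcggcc
Pld6, chr11:59787658-59787907, minus strand: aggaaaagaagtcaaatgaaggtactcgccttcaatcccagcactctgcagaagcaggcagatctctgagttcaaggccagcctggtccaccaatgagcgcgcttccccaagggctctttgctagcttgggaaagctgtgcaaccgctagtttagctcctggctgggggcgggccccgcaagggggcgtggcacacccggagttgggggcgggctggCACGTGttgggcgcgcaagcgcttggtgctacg
Mov10l1, chr15:88982744-88982993, plus strand: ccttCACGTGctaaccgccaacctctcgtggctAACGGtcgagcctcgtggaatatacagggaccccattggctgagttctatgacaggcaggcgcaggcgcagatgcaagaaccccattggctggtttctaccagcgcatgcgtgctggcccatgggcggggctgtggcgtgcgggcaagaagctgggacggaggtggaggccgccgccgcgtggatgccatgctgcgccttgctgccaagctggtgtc
Mael, chr1:166238745-166238994, minus strand: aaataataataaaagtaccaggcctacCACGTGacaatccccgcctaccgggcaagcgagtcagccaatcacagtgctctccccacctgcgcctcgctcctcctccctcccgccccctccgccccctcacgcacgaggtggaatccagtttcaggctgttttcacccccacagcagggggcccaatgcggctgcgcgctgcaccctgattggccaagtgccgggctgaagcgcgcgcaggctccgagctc

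A RefSeq window was found for 8 of the 9 genes. The E-box was in a window of 4 of these 8 (Ddx4, Pld6, Mov10l1 and Mael), while 6.02% of all 32851 RefSeq windows of this length held it. Counted from the RefSeq start, it lay at positions -29 to -24 in Ddx4, -33 to -28 in Pld6, -223 to -218 in Mael and -246 to -241 in Mov10l1. GENCODE M21 places some starts further out. Inside the GENCODE gene lie 165 of the 250 Ddx4 bases, 85 of those of Mov10l1 and 3 of those of Mael. The Ddx4 E-box and MYB core are among them. Of the windows not shown, the same holds for 43 Gtsf1 bases and for the whole Henmt1 and inner Pld6 windows. The MYB core was in a window of 3 of the 8 (Ddx4, Mov10l1 and, in its inner window, Pld6), against 14.5% of all windows. Pld6 has an outer and an inner window, so the 8 genes have 9 windows. Of these the MYB core was in 3 and the E-box in 4. The full cAMP response element TGACGTCA, searched on both strands, was in 0 of the 8 and in 1.55% of all windows. No match of 1 motif overlapped that of another, and matches are letter matches only. The Btbd18 window held none of the 3.

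In the mock libraries the 9 genes differed widely in level. With counts scaled to library size (CPM) and divided by the kilobases of merged exons in GENCODE M21, the order from high to low was Mael, Ddx4, Gtsf1, Pld6, Mov10l1, Asz1, Henmt1, Pnldc1 and Btbd18. Mael stood at 829 ± 11.1 CPM per kb and Ddx4 at 267 ± 4.62 (SD, n = 2 each), above 99.9% and 99.3% of all tested genes. The cofactor Gtsf1 had 82.0 ± 0.208 CPM per kb, Pld6 47.7 ± 0.212, Mov10l1 32.0 ± 0.300, Asz1 18.1 ± 1.15 and Henmt1 14.0 ± 0.581 (SD, n = 2 each). The trimming enzyme Pnldc1 was at 2.06 ± 0.144 CPM per kb, and the nuclear factor Btbd18 at 0.147 ± 0.00248 (SD, n = 2 each), above only 10.7% of tested genes. No 2 neighbours in this order overlapped between libraries, and the BMH21 libraries gave the same order.

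After BMH21 the mRNA of Btbd18 rose about 3.5-fold, and the fitted changes of the other 8 genes were under 10%. Of the 9 genes, 3 were called higher (Btbd18, Ddx4 and Pld6), 1 was called lower (Mov10l1) and 5 were not called (adjusted p under 0.05 in the edgeR quasi-likelihood test, by Benjamini-Hochberg over 13793 tested genes). Of all tested genes 29.1% were called, 16.5% higher and 12.5% lower; over autosomal genes, to which all 9 belong, the shares were 15.1% and 12.8%. The median log2 fold change was 0.04 over the 9 genes and -0.00029 over all tested genes. Of the 9 log2 fold changes, 8 lay between the quartiles of all tested genes, -0.17 and 0.18. The median size of the change was 0.09 over all 9 and 0.18 over all tested genes. These comparisons with all tested genes were not matched for level. Only the calls of Btbd18 and Mov10l1 were also made by DESeq2, and only that of Btbd18 held when each library was left out in turn.

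**Figure D1:**
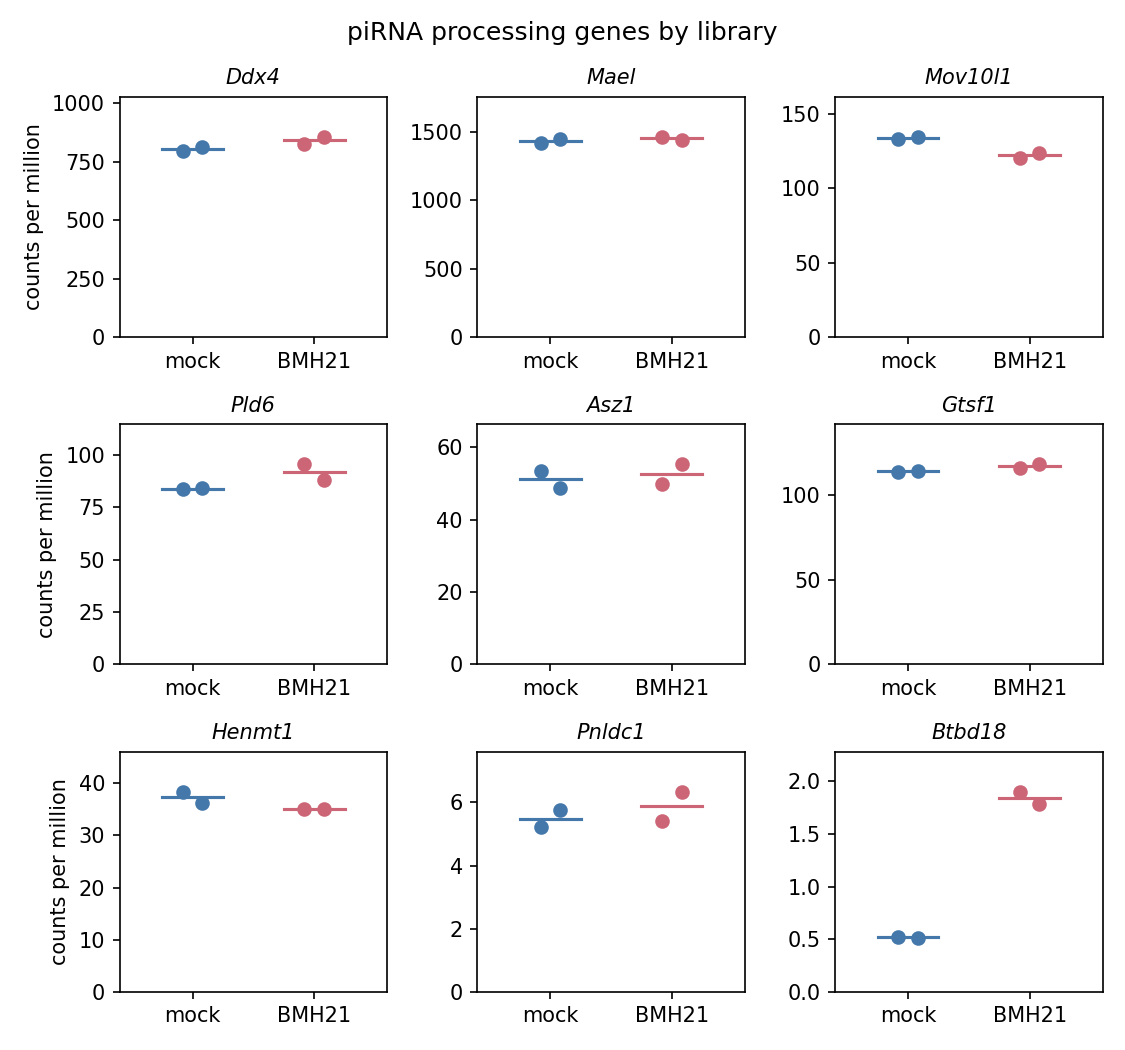
Level of each of the 9 genes in CPM on an axis from 0, with 1 point per library and a line at the mean of each group (mock in blue, BMH21 in red). The Btbd18 points lie at 0.524 and 0.512 CPM in mock and at 1.90 and 1.78 CPM in BMH21; for the other 8 genes the 2 groups lie at nearly the same height.

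**Figure D2:**
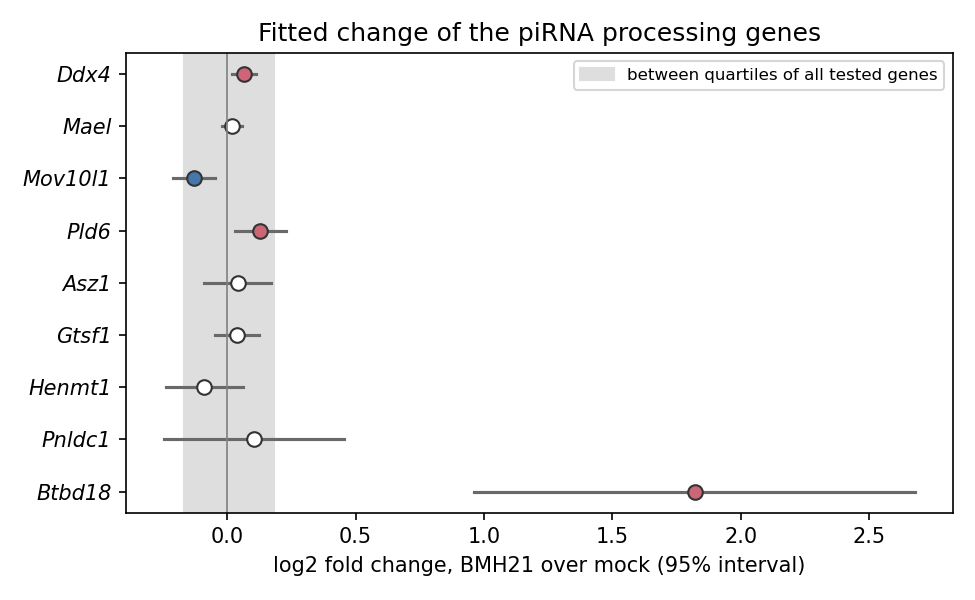
Fitted log2 fold change of BMH21 over mock for each gene with its 95% interval; red points were called higher, blue lower and white not called. The grey band spans the quartiles of all tested genes, from -0.17 to 0.18, and all but Btbd18, at 1.82, have their points inside it.

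Btbd18 acts before the processing steps. It encodes a nuclear BTB-domain protein known to promote transcription elongation by RNA polymerase II at pachytene piRNA genes. Its gene (ENSMUSG00000086598.10) lies on chromosome 2, 84659079 to 84668780 on GRCm38, plus strand. The mock libraries held 22 and 16 Btbd18 counts and the BMH21 libraries 63 and 66. In CPM these were 0.524 and 0.512 against 1.90 and 1.78, so that the groups were far apart. The exact Poisson 95% intervals of the mock libraries were 0.329 to 0.794 and 0.293 to 0.831 CPM. The closeness of the mock replicates is thus no measure of precision. On the log2 scale Btbd18 rose by 1.82 ± 0.43 (SE), which is 3.53-fold (95% interval 1.95 to 6.40, edgeR adjusted p = 5.5e-04). The ratio of the summed counts was 3.54, and its exact Poisson interval, which covers counting error only, ran from 2.45 to 5.23. For comparison, higher calls made up 7.04% of the tested autosomal genes whose mock mean was below 1 CPM. Both mock libraries exceeded the count filter on their own (0.282 CPM), so Btbd18 did not enter the test through the BMH21 libraries. Leaving out each library in turn gave 1.77 to 1.86, and the call was made under all 11 alternative settings.

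No annotated exon of GENCODE M21 overlaps those of Btbd18, but the gene lies within the span of Gm28635, a model on the opposite strand. Gm28635 and Ctnnd1 had log2 fold changes of -0.02 and -0.03 and were not called. Their counts were close in each library, with 8352 and 8671 in mock replicate 1 and 6603 and 6778 in BMH21 replicate 1. Whether they share reads was not tested, so they may not be separate readings. On the other side Selenoh was at 1.12 CPM in mock and 0.758 in BMH21 (-0.56, not called), and Med19 was not called (0.03). Tmx2, a thioredoxin-related gene further along, rose by 0.21 on the log2 scale, from 29.3 to 33.8 CPM (edgeR adjusted p = 0.0386). These neighbours were chosen for their position; none had a change near that of Btbd18.

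Of the transcription factors that act on the same genes, Mybl1 (A-MYB), which activates pachytene piRNA genes and many factors of the pathway, fell from 208 ± 0.861 to 193 ± 7.19 CPM (SD, n = 2 each). Its log2 fold change was -0.11 (edgeR adjusted p = 0.0153), a call lost in DESeq2 (-0.11), without mock replicate 1 (-0.10) or 2 (-0.11) and without BMH21 replicate 1 (-0.07). Tcfl5, a basic helix-loop-helix factor of the same stage, stood at 490 ± 4.66 and 480 ± 2.89 CPM (SD, n = 2 each) and was not called (-0.03), except under upper quartile scaling (-0.08, adjusted p = 0.0170).

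The granule proteins Ddx4 and Mael supplied most of the reads of the group. Ddx4 encodes the vasa helicase, a DEAD-box protein of the germ granule (ENSMUSG00000021758.15, chromosome 13, 112598333 to 112652475, minus strand). Its level was 795 and 814 CPM in mock and 826 and 858 CPM in BMH21. The groups did not overlap, but the gap between them, 11.5 CPM, was smaller than the distance between replicates, which was 19.7 CPM for mock and 32.2 CPM for BMH21. The rise was 4.68% (95% interval 1.38 to 8.08), or 0.07 ± 0.02 (SE) on the log2 scale (edgeR adjusted p = 0.0236). The call was lost in DESeq2 (0.07, adjusted p = 0.0506), with upper quartile factors (0.02), without mock replicate 1 (0.05) or 2 (0.08), and without BMH21 replicate 2 (0.04).

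Mael encodes maelstrom, an HMG-box protein of the granule needed for transposon silencing (ENSMUSG00000040629.9, chromosome 1, 166201201 to 166238747, minus strand). It was at 1422 and 1450 CPM in mock and at 1468 and 1441 CPM in BMH21, and the groups overlapped. The fitted change was 1.31% with a 95% interval of -1.45 to 4.14 (edgeR adjusted p = 0.551). On the log2 scale this was 0.02 ± 0.02 (SE), or -0.03 under upper quartile scaling. Among the 9 genes its interval was the narrowest.

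Ddx4 belongs to a family of related helicases, of which Ddx3x and Ddx3y lie on the sex chromosomes and D1Pas1 is an autosomal, intronless relative. Ddx3x rose from 16 and 6 counts in mock to 720 and 843 in BMH21 (log2 fold change 6.20, edgeR adjusted p = 2.9e-36). Ddx3y rose from 5 and 6 counts to 409 and 536 (6.45, edgeR adjusted p = 7.9e-31). The rise of Ddx3x was not particular to this family. All X-linked genes together held 0.0398% and 0.0405% of the counts in mock and 0.878% and 0.888% in BMH21. D1Pas1 stood at 485 and 484 CPM in mock and at 474 and 476 CPM in BMH21 and was not called (-0.03), except under upper quartile scaling (-0.07, adjusted p = 0.0201). Ddx3x, Ddx3y and D1Pas1 are close in sequence, so the division of reads among them is uncertain. The low-count folds carry wide errors, and leaving out a library or changing a setting moved them between 5.85 and 6.83 for Ddx3x and between 6.10 and 6.78 for Ddx3y.

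Of the genes that feed precursors into cleavage, Mov10l1 fell and Pld6 rose. Mov10l1 encodes an RNA helicase that binds piRNA precursors and PIWI proteins (ENSMUSG00000015365.16, chromosome 15, 88982909 to 89055152, plus strand). Its level was 133 and 135 CPM in mock and 120 and 124 CPM in BMH21, with both BMH21 libraries below both mock libraries by more than the replicates differed. The change was -8.62% (95% interval -13.7 to -3.27), or -0.13 ± 0.04 (SE) on the log2 scale (edgeR adjusted p = 0.0111). In the authors' deposited table the adjusted p was 0.0441 for Mov10l1, 0.0584 for Ddx4, 0.162 for Pld6 and 0.0033 for Btbd18, and the table's own mark for changed genes is set for Btbd18 alone of the 9. The call was lost when mock replicate 1 (-0.14, adjusted p = 0.0596), mock 2 (-0.12, 0.103) or BMH21 1 (-0.11, 0.0650) was left out, each of which leaves 1 library in a group. Its paralog Mov10, of the same helicase family and expressed more broadly, had 22.7 ± 2.21 CPM in the mock and 18.3 ± 2.21 CPM in the BMH21 libraries (SD, n = 2 each), and fell by 0.32 on the log2 scale (edgeR adjusted p = 0.0111). DESeq2 did not call Mov10 (-0.32), nor did edgeR when mock replicate 1 (-0.21) or BMH21 replicate 2 (-0.20) was left out.

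Pld6 encodes a phospholipase D family protein of the mitochondrial outer membrane, the mouse counterpart of the zucchini nuclease that makes the head end of piRNAs (ENSMUSG00000043648.8, chromosome 11, 59783897 to 59787645, minus strand). It was at 83.5 and 84.1 CPM in mock and at 95.5 and 87.9 CPM in BMH21. Both BMH21 libraries were higher, but the replicates of that group differed by more than the lower of them exceeded mock. The rise was 9.36% (95% interval 2.05 to 17.2; log2 fold change 0.13 ± 0.05 (SE), edgeR adjusted p = 0.0433). The call was lost in 6 of 11 alternatives: upper quartile scaling (0.08), DESeq2 (0.13), the fit with the replicate number as a block (0.13, adjusted p = 0.0512), and when mock replicate 1 (0.13), mock 2 (0.13) or BMH21 1 (0.07) was left out. Asz1 encodes an ankyrin-repeat scaffold on the same membrane that holds the granule to the mitochondria (ENSMUSG00000010796.12, chromosome 6, 18050964 to 18109061, minus strand). It was at 53.5 and 48.9 CPM in mock and at 49.96 and 55.4 CPM in BMH21, with overlapping groups and a fitted change of 2.82% (95% interval -6.06 to 12.5, edgeR adjusted p = 0.719). The sign of Asz1 changed under upper quartile scaling and when 1 library was left out.

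The 3 genes that act once a PIWI protein is loaded were not called. Gtsf1 encodes a small zinc-finger protein that helps PIWI proteins cleave their targets (ENSMUSG00000022487.15, chromosome 15, 103402405 to 103430470, minus strand). It was at 113.7 and 114.1 CPM in mock and at 115.8 and 118.2 CPM in BMH21, without overlap, and the fitted change was 2.71% (0.968 to 1.09 times the mock level in the 95% interval; edgeR adjusted p = 0.572). Under upper quartile scaling its log2 fold change was -0.0070. Pnldc1 encodes the exonuclease that trims the tail end (ENSMUSG00000073460.6, chromosome 17, 12888729 to 12910230, minus strand). It had 219 and 180 counts in mock and 179 and 235 in BMH21, or 5.22, 5.76, 5.40 and 6.34 CPM, with overlapping groups. At this depth its change of 7.39% had a 95% interval of -15.8 to 37.0, the widest of the 9 genes after Btbd18. Without BMH21 replicate 2 its log2 fold change was -0.02.

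Henmt1 encodes the methyltransferase that completes the tail end (ENSMUSG00000045662.18, chromosome 3, 108939873 to 108960774, plus strand). It was at 38.4 and 36.2 CPM in mock and at 35.1 and 35.2 CPM in BMH21. Both BMH21 libraries lay below mock, by less than the mock libraries differed from each other. The fitted change was -6.00% (95% interval -15.3 to 4.31, edgeR adjusted p = 0.425). Of its exon bases 14.7% are shared with Gm9857 on the opposite strand, and 5.41% of those of Pnldc1 with an antisense gene. The sources used here do not say whether the counting used strand. The other 7 genes share no exon bases with another annotated gene.

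Without regard to direction, 6 of the 9 genes had no overlap between groups in CPM, 4 higher and 2 lower in BMH21. Over all tested genes 60.9% had no overlap, 30.9% higher and 29.9% lower, so the count for the 9 genes is near the background.

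The summed level of the 9 genes was 2645 and 2688 CPM in mock and 2718 and 2728 CPM in BMH21, a ratio of the means of 1.02. With plain library sizes it was 1.0015, so the size of the difference depended on the scaling. Within this sum the share of Mael was 53.9% ± 0.103 in the mock and 53.4% ± 0.826 in the BMH21 libraries, and that of Ddx4 30.2% ± 0.175 and 30.9% ± 0.755 (SD, n = 2 each). For Mov10l1 the mock shares were 5.02%, with an exact binomial 95% interval of 4.90 to 5.15, and 5.01% (4.86 to 5.16); the BMH21 shares were 4.43% (4.30 to 4.57) and 4.54% (4.41 to 4.67). For Btbd18 the mock shares were 0.0198% (0.0124 to 0.0300) and 0.0190% (0.0109 to 0.0309), and the BMH21 shares 0.0700% (0.0538 to 0.0895) and 0.0653% (0.0505 to 0.0831). For both genes the intervals of the 2 groups were apart. Those of Ddx4 overlapped, with 29.98 to 30.60 in mock 2 and 30.08 to 30.68 in BMH21 1. Those of Pld6 did too, with 3.06 to 3.26 in mock 1 and 3.11 to 3.33 in BMH21 2. All these intervals cover counting error only.

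**Figure D3:**
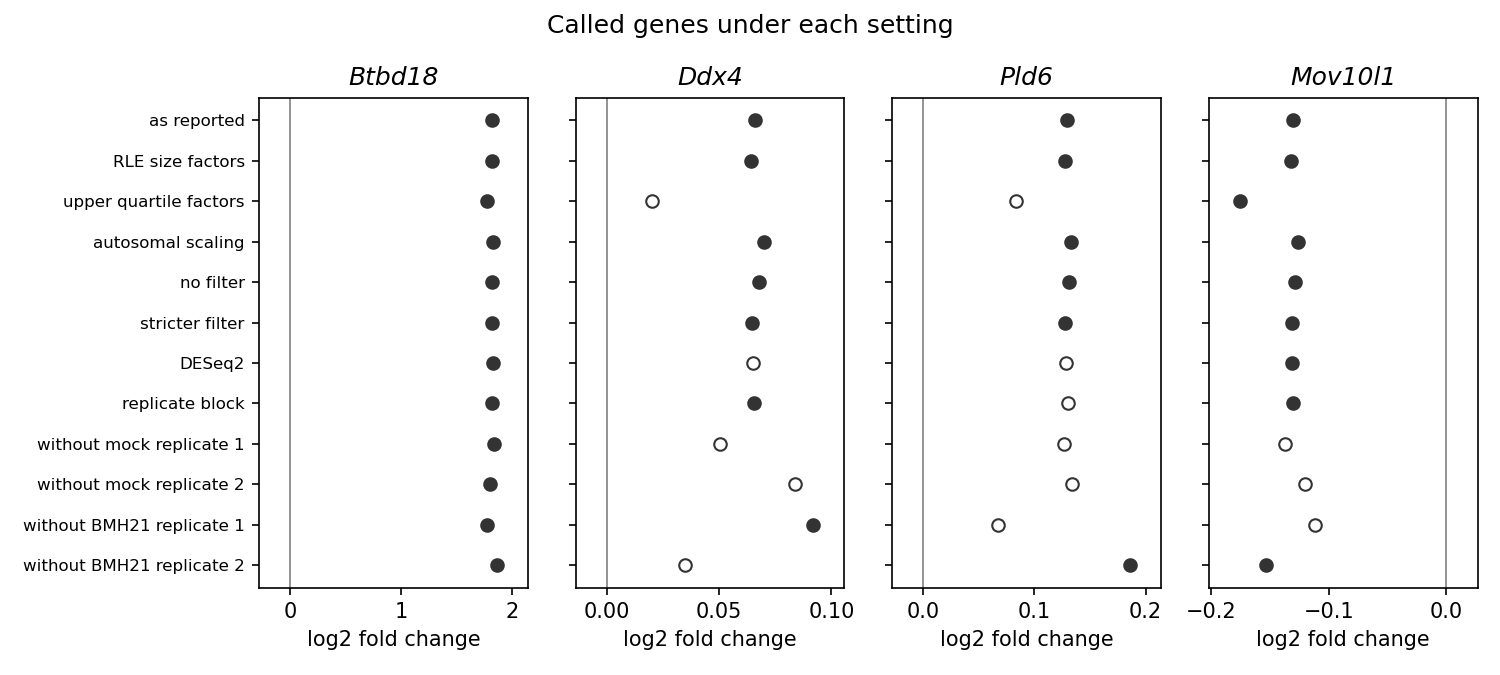
Log2 fold change of the 4 called genes as reported and under 11 alternative settings, with filled points where the gene was called; each panel has its own axis and a grey line at 0. Btbd18 was called in all 11 alternatives, Mov10l1 in 8, Ddx4 in 6 and Pld6 in 5, and none of the 4 changed sign.

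The rest of the pathway was read from a list of 25 genes (PIWI proteins, Tudor-domain proteins, further processing and silencing factors, transcription factors, and the enzyme that methylates PIWI proteins). Of these 24 were listed and tested, and Piwil4 was not analysed here. By the same test 5 rose (20.8%, against 16.5% of all tested genes), 7 fell (29.2%, against 12.5%) and 12 were not called. DESeq2 called 5 higher and 5 lower, where over all genes with an adjusted p it called 13.1% higher and 8.63% lower. Their median log2 fold change was -0.03, and the median size 0.06, against 0.18 over all tested genes. Many genes of the list are abundant, and the shares over all genes were not matched for level. Leaving out 1 library gave 4 to 5 higher and 3 to 8 lower. The count of lower calls was 3 without mock replicate 1 and 4 without mock replicate 2.

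The 3 that rose with the smallest p were Stk31, Piwil2 and Rnf17. Stk31, a Tudor-domain protein with a kinase domain, went from 158 and 157 to 236 and 221 CPM (log2 fold change 0.54, edgeR adjusted p = 1.2e-20). Piwil2 went from 263 and 267 to 329 and 323 CPM (0.30, edgeR adjusted p = 3.5e-13). Rnf17, a Tudor-domain protein of germ granules, went from 332 and 329 to 391 and 407 CPM (0.27, edgeR adjusted p = 1.9e-12). The BMH21 libraries of all 3 lay well above mock. The remaining higher calls were the Tudor-domain genes Tdrd5 (0.17) and Tdrkh (0.21), named after their values were seen. TDRKH is the membrane partner of PNLDC1. Of the exon bases of Tdrkh 36.7% are shared with Oaz3 on the opposite strand.

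The 3 that fell with the smallest p were Piwil1, Wdr77 and Prmt5. Piwil1 encodes MIWI, the main PIWI protein of pachytene cells and round spermatids, and went from 780 and 764 to 694 and 690 CPM (log2 fold change -0.16, edgeR adjusted p = 8.3e-08). Prmt5 encodes the arginine methyltransferase that prepares PIWI proteins for Tudor domains, and Wdr77 its obligate partner. Wdr77 went from 36.8 and 36.1 to 25.8 and 25.1 CPM (-0.52, edgeR adjusted p = 3.3e-07), and Prmt5 from 93.6 and 96.3 to 80.1 and 84.0 CPM (-0.21, edgeR adjusted p = 5.2e-04). The mRNAs of both subunits of the methylating enzyme thus fell, with no overlap between groups. Over all tested genes 29.9% were lower in BMH21 without overlap. Of the exon bases of Wdr77 6.96% are shared with Atp5f1 on the opposite strand and 28.7% with Gm42890 on the same strand. The remaining lower calls, apart from Mybl1, were Tdrd6 (-0.05), Tdrd9 (-0.09) and Hsp90aa1 (-0.04), named after their values were seen. All 6 genes named for their p kept their direction and call under the 11 alternatives.

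**Figure D4:**
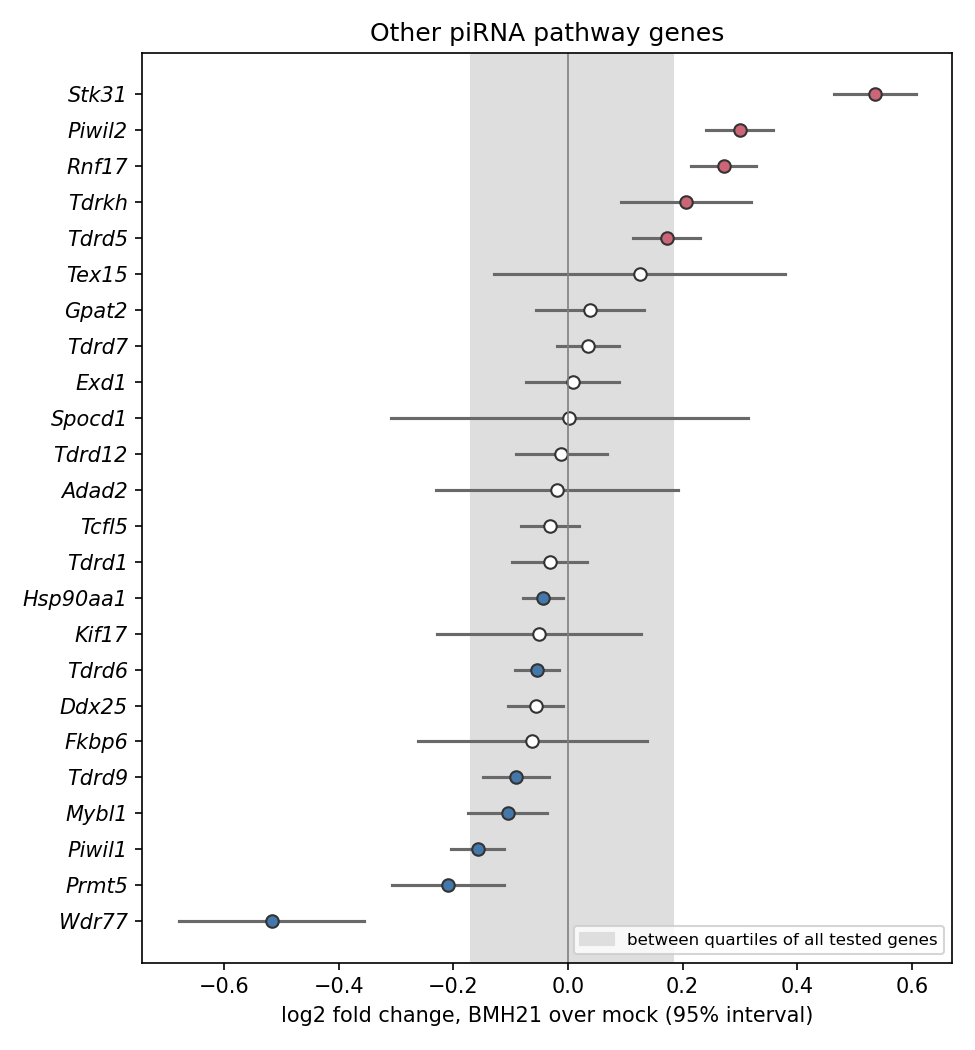
Fitted log2 fold change of BMH21 over mock with 95% intervals for the 24 tested genes of the rest of the pathway, sorted by value; red was called higher, blue lower and white not called. Stk31 at 0.54 and Wdr77 at -0.52 are the extremes, and the grey band spans the quartiles of all tested genes.

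Summed over the table, the libraries had between 30964370 and 41548269 counts. Replicates differed beyond counting noise, with a chi-square of 3.21 (mock) and 3.71 (BMH21) per degree of freedom. Of 12 pachytene markers all were detected, 2 rose and 5 fell. Over all tested genes 16.5% were called higher and 12.5% lower. The summed level of the pachytene markers was 5948 to 6030 CPM in mock and 5694 to 5806 CPM in BMH21. The marker H1f6 was at only 0.242 to 0.480 CPM. The summed level of 8 round spermatid markers was 271 to 274 CPM in mock and 286 to 290 CPM in BMH21. Of these 8, 0 were called in edgeR, 2 had an unadjusted p under 0.05, and 0 were called in DESeq2. Akap4, 1 of those 2, is X-linked, with means of 64.9 CPM in mock and 71.2 in BMH21, and is part of this sum. For 7 listed spermatogonial markers the sums were 17.9 to 19.4 and 14.1 to 16.9 CPM, with 2 of 5 tested called lower. For the 6 listed leptotene and zygotene markers they were 247 to 248 and 277 to 287 CPM, with 1 of 6 called higher, Sycp3, which is on the pachytene list too, and 2 lower. Sycp3 shares 52.2% of its exon bases with Chpt1 on the opposite strand. Without it the direction of the sum turned, with 123 CPM in both mock libraries and 109 to 111 CPM in BMH21. Most of this sum was Spo11, with means of 116 CPM in mock and 104 in BMH21. Of the rest, Meiob (4.26 CPM in mock, 2.73 in BMH21) and Prdm9 (0.726, 0.524) were lower. Dmc1 (0.383, 0.975) and Gm960 (1.67, 2.20) were higher. The listed Sertoli, Leydig, peritubular, endothelial and macrophage markers summed to at most 9.54 CPM per list and library. Only 3 of 8 Sertoli and 3 of 5 Leydig markers were listed. Of the tested markers in these lists 1 was called, the Leydig gene Star, which fell from 8.97 to 6.34 CPM. In bulk RNA, fewer cells of a type and less RNA per cell cannot be told apart. Whether these marker shifts had a part in the small fitted changes of Ddx4, Pld6 and Mov10l1 was not tested.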

How the data were processed

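The authors deposited 1 table of raw read counts per gene for the 4 libraries, made without normalization, from which the tests start. The size-factor-normalized values (signal), the log2 fold changes, the Wald score and the p-values in the table are the authors' DESeq2 output, per the file headers, and entered no test. Per the submitters' processing notes, the build was mm10 and the tools were DESeq2, featureCounts, STAR, SAMtools and fastp; versions and settings are not given in the sources used here. Positions in the deposited table equal those of GENCODE M21 (GRCm38) for only 369 of 15670 genes matched by identifier, so GENCODE M21 positions were used.

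Counts were filtered with filterByExpr (minimum count 10), scaled by TMM and tested with edgeR 4.0.16 in R 4.3.3 (quasi-likelihood, group alone, all 4 libraries). Of the 15733 genes 13793 were tested, among them all 9 described. CPM values use TMM-scaled library sizes. A standard error is the log2 fold change divided by the square root of F, an approximation. Poisson and binomial 95% intervals are exact. The fit was tested on simulated data with changes larger than those of Ddx4, Pld6 and Mov10l1, so that test does not bear on their calls. Alternatives were other scalings and filters, DESeq2 1.42.0, the replicate number as a block, and leaving out each library.

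The 9 genes, the lists and the rule for named genes were chosen with earlier results of these data known. The rule took the 9 genes, the 3 called genes of the wider pathway with the smallest p in each direction, Piwil1, Mybl1 and Tcfl5, and called paralogs with those of Ddx4.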

Additional observations from a re-analysis of the deposited data

How the results depend on the processing

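Of the 9 genes, 1 was called higher under upper quartile scaling and 1 in DESeq2, in place of 3; leaving out 1 library gave 1 to 2 higher and 0 to 1 lower. Of the wider pathway list, leaving out 1 library gave 3 to 8 lower. The ratio of the summed level was 1.0015 with plain library sizes. Upper quartile scaling moved the median log2 value by -0.05; the share of higher among all calls was then 42.1%, against 56.9% as reported. Signs changed only in genes that were not called: under upper quartile scaling Mael (-0.027), Asz1 (-0.0052) and Gtsf1 (-0.0070), and with 1 library left out Asz1 (-0.040 to 0.11, below 0 without mock replicate 2 or BMH21 replicate 2) and Pnldc1 (-0.022 to 0.21, below 0 without BMH21 replicate 2). The cause was not tested.

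Same-numbered libraries did not deviate together (correlation 0.01), so the numbers are not taken as pairs. With the replicate number as a block 2 of the 9 genes were called higher and 1 lower, and over all genes 2189 higher and 1595 lower, against 2282 and 1731. Over all genes DESeq2 called 1779 higher and 1174 lower. A library left out leaves 1 in its group, assumed to vary like the other group. With 2 libraries a group, changes of a few percent are near the limit of the test, and for Pnldc1 counting alone spans 0.941 to 1.25 times the mock level.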
